A study of Mus musculus with 12 samples.

Results

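The replication-dependent histone genes were followed through RNA sequencing of sorted mouse CD4+ T cells. Members were all genes of the count table whose GENCODE symbol starts with Hist1h, Hist2h, Hist3h or Hist4h and that had at least 10 counts summed over 12 libraries. This gave 63 members among 43626 genes, and 4 further genes with such a symbol fell under 10 counts. By the class in the symbol, 6 encode the linker histone H1, 18 H2A, 15 H2B, 11 H3 and 13 H4. A Hist1 symbol is carried by 52 of them, all on chromosome 13, where the pseudogene Hist1h2al lies far from the cluster of the others. The Hist2 cluster on chromosome 3 holds 7, the Hist3 cluster on chromosome 11 holds 3 and Hist4h4 lies alone on chromosome 6. Of the 63, 55 passed the filter on low counts and were tested among 13238 genes: 5 H1, 14 H2A, 13 H2B, 11 H3 and 12 H4 genes.

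All cells started as splenic CD45RB-high, CD25-negative naive CD4+ T cells of donors with a conditional (flox) and a green fluorescent protein (GFP) allele of Eomes, the gene of a T-box transcription factor. They were transferred into adult male Rag2-/- mice, hosts without mature lymphocytes of the T and B lineages, and recovered from the spleen after 3 weeks. Donors without cre are called Het. Donors with Lck-cre, a recombinase driven by a promoter active in T cells, are called KO. From each of 6 recipients CD4+ cells with and without GFP were sorted, which gives 4 groups of 3 libraries, named below by genotype and sort.

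Replication-dependent histone genes supply the proteins that package newly made DNA, and their mRNA is made mainly in S phase. H2A, H2B, H3 and H4 form the nucleosome core and H1 binds the linker DNA between nucleosomes. Their mRNAs end in a conserved stem-loop in place of a poly(A) tail. The stem-loop-binding protein SLBP holds it, and NPAT at the histone gene clusters drives transcription downstream of cyclin E and CDK2. Some members can also be polyadenylated, mostly in cells that have stopped dividing. Libraries here were made from total RNA after depletion of ribosomal RNA and without selection of poly(A) tails, so both forms can be counted.

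The libraries held 2116894 to 18167236 counts, and every GFP-positive library had fewer counts and came from fewer cells (18000 to 117000) than every GFP-negative library (645000 to 2100000 cells). The GFP-positive replicates 2 stood apart. A set of 4 features that each took over 5% of the counts of some library held 58.3% of the counts of Het GFP-positive replicate 2 and 54.3% of KO GFP-positive replicate 2, against 16.3% to 30.9% elsewhere. For the GFP comparisons, the members' medians, their blocked calls and the ratios between classes are therefore also given without recipients 2. As a check of the labels, Eomes lay at 2.15 to 9.18 CPM (counts scaled to library size, with the trimmed mean of M values, TMM) in the Het libraries without GFP and at 89.7 to 123 CPM in those with GFP. The KO libraries held 1.94 to 4.72 CPM without and 31.5 to 46.6 CPM with GFP. A total per gene is silent on the floxed segment of Eomes. The 9 CD4 T cell markers, Cd4 and Cd3e among them, were read in every library, with a summed level of 1967 to 3338 CPM. The sum was lower in GFP-positive libraries without overlap, at 2105 to 2255 against 2612 to 3338 CPM in Het and 1967 to 2522 against 2813 to 3217 CPM in KO cells.

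The feature that unites the members at the RNA level is the stem-loop, and it is shown first because the total RNA protocol is what makes these mRNAs visible. Its letters were searched in the GENCODE M21 transcripts as a run of 16 bases, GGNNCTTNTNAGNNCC in DNA letters with the 6 outer bases on each side required to pair, on the transcript strand. It was found in 42 of 63 members, which are 42 of the 50 members with an annotated 3′ untranslated region. The 13 members without such a region had no match. Among 55387 other genes 19 had a match, or 0.0343%. The 42 members used 8 forms, shown in RNA letters with the pairing stem in capitals and the loop in lower case.
The form shared by 22 members of the H1, H2A, H2B and H3 classes, among them Hist1h1c, Hist1h1d, Hist1h1e and Hist1h2be: GGCUCUuuucAGAGCC
The form of 6 members, among them Hist1h2bb, Hist1h3c, Hist1h3e, Hist1h3f and Hist1h1t: GGCUCUuuuaAGAGCC
The form of 7 H4 members, among them Hist1h4c, Hist1h4d, Hist1h4f and Hist4h4: GGCCCUuuucAGGGCC
The form of the H4 members Hist1h4i and Hist2h4: GGCCCUuuuuAGGGCC
The form of the H4 members Hist1h4b and Hist1h4j: GGUCCUuuucAGGACC
The form of Hist2h2ac: GGCUCUuuuuAGAGCC
The form of the H4 member Hist1h4a: GGCCCUucucAGGGCC
The form of the H3 member Hist1h3g: GGCUCUucuuAGAGCC
The H4 stem-loops thus differed from those of the other classes within the stem, and 12 of 13 H4 members had one.

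Promoters are shown because the H1 and H4 classes differ in promoter letters. A link of these letters to the GFP comparisons described below was not tested. RefSeq promoters of GRCm38.p6 matched 55 members by symbol, and the 250 bases before each start were searched on both strands. The H1 box AAACACA lay in 5 of 6 H1 promoters, in 1 of 16 H2A promoters and in none of the 12 H2B, 9 H3 and 12 H4 promoters, against 6.25% of all 32851 promoters. GGTCC, the core of the element bound by the H4 factor HINFP, lay in 11 of 12 H4 promoters, against 39.8% of all promoters. It also lay in 1 of 6 H1 promoters, that of Hist1h1a, which was the H1 gene without the H1 box. Hist1h1a is also the H1 gene called in the paired fit of Het cells below. CCAAT lay in 45 of 55 member promoters and in 3 of 12 of those of H4, against 33.8% of all. TATAAA lay in 27 of 55, against 12.4% of all. The octamer ATTTGCAT lay in 6 of 16 H2A and 3 of 12 H2B promoters, against 1.6% of all. The 150 bases before the RefSeq start are shown for 2 H1 and 2 H4 genes with a high level, with these 5 motifs in capitals on either strand. No motif of the 5 contains another, but their matches can touch.
Hist1h1d, chr13:23554882-23555031, plus strand: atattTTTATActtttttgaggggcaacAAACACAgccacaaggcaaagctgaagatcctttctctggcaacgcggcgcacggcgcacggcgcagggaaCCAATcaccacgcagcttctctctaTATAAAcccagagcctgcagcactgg
Hist1h1e, chr13:23622559-23622708, minus strand: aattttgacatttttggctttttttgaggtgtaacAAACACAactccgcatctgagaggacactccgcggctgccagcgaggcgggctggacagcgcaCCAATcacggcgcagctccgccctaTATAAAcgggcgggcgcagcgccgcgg
Hist1h4d, chr13:23581418-23581567, plus strand: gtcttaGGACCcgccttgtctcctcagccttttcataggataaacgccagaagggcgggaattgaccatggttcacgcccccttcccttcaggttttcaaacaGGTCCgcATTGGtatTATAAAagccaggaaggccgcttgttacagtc
Hist1h4f, chr13:23551669-23551818, minus strand: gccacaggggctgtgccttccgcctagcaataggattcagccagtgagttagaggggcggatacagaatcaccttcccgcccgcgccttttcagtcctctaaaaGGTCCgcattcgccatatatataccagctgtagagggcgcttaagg
The H1 box began 122 bases before the start in Hist1h1d and 115 before it in Hist1h1e, with CCAAT 51 and 52 bases before it. In Hist1h4d and Hist1h4f GGTCC began 47 and 46 bases before the start. A match describes the letters and is not evidence of a bound site.

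The members are short and alike, which limits what single genes can show. Their summed exon length had a median of 480 bases, against 3482 over all tested genes. Of the 50-base windows of each member's GENCODE M21 transcripts, a median of 55% also occurred in another gene, with a class median of 1.2% for H1, 73.2% for H2A, 49.7% for H2B, 60.4% for H3 and 39.5% for H4. Some of these transcripts run beyond the exons that were counted. Hist1h1d had 744 counted bases and 7376 windows, Hist1h1e 748 and 1881, and Hist1h4d 393 and 1089. The shares within the counted bases were not computed, and for such genes they can be higher. The share was 0% for Hist1h1a, Hist1h1b, Hist1h1t and Hist2h2be and over 80% for 17 members. How reads with several matches were counted is not given in the sources used here. Values of near-identical copies are therefore uncertain, such as Hist1h2ao (46 counts in all) and Hist1h2ap (4358 counts), or Hist1h4m (151 counts) and Hist1h4n (7429 counts). The same holds for Hist1h2be, whose annotated 4374 bases of exon run over Gm11398 on the same strand, Hist3h2a, which overlaps Trim17, and Hist1h4b, which overlaps 4930558J22Rik on the opposite strand. Genes on the opposite strand also overlap Hist2h2ab (Gm15444), Hist2h3b (Gm20628) and Hist2h2aa2 (Gm20632), and 64.8%, 100% and 100% of their windows occur in other genes.

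The 63 members took between 0.233% of the counts of a library (Het GFP-positive replicate 2) and 1.07% (the third KO GFP-negative library), and 879530 counts in all. Members with a Hist1 symbol gave 93.3% of them, and the 5 members with the most counts, Hist1h1c, Hist1h1d, Hist1h1e, Hist1h1b and Hist1h4d, gave 36.2%. Per kilobase of exon, the highest mean levels over the 12 libraries were those of the H4 gene Hist1h4d (743 CPM per kb) and the somatic linker histone genes Hist1h1d (737) and Hist1h1e (647). Hist1h4f (558), the H2B gene Hist1h2bb (488) and Hist1h1b (435) followed. In the H2A class Hist1h2ak (389), Hist1h2ab (210) and Hist2h2ac (180 CPM per kb) led. In the H3 class the leading genes lay close together, with Hist1h3c at 204, Hist1h3f at 203 and Hist1h3e at 191 CPM per kb. Hist1h1t, the linker histone gene of the testis, was close to absent, with 21 counts over all libraries.

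The summed level of the members ordered the genotypes more clearly than the GFP sorts. It was 3652, 4494 and 6149 CPM in Het GFP-negative and 4635, 3969 and 5987 in Het GFP-positive replicates 1 to 3. The KO GFP-negative libraries held 7949, 5878 and 9630 CPM and the KO GFP-positive libraries 9120, 4466 and 8111. Means were 4765 ± 1270, 4864 ± 1028, 7819 ± 1879 and 7232 ± 2449 CPM in the same order of groups (SD, n = 3). The GFP-negative groups overlapped through Het replicate 3, which lay above KO replicate 2, and the GFP-positive groups through KO replicate 2, which lay below Het replicates 1 and 3. As a share of the counts outside the 4 large features, the means were 0.665 ± 0.185%, 0.696 ± 0.163%, 1.07 ± 0.234% and 1.03 ± 0.330% (SD, n = 3). In bulk RNA, fewer cells that make histone mRNA and less of it per cell cannot be told apart.

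**Figure D1:**
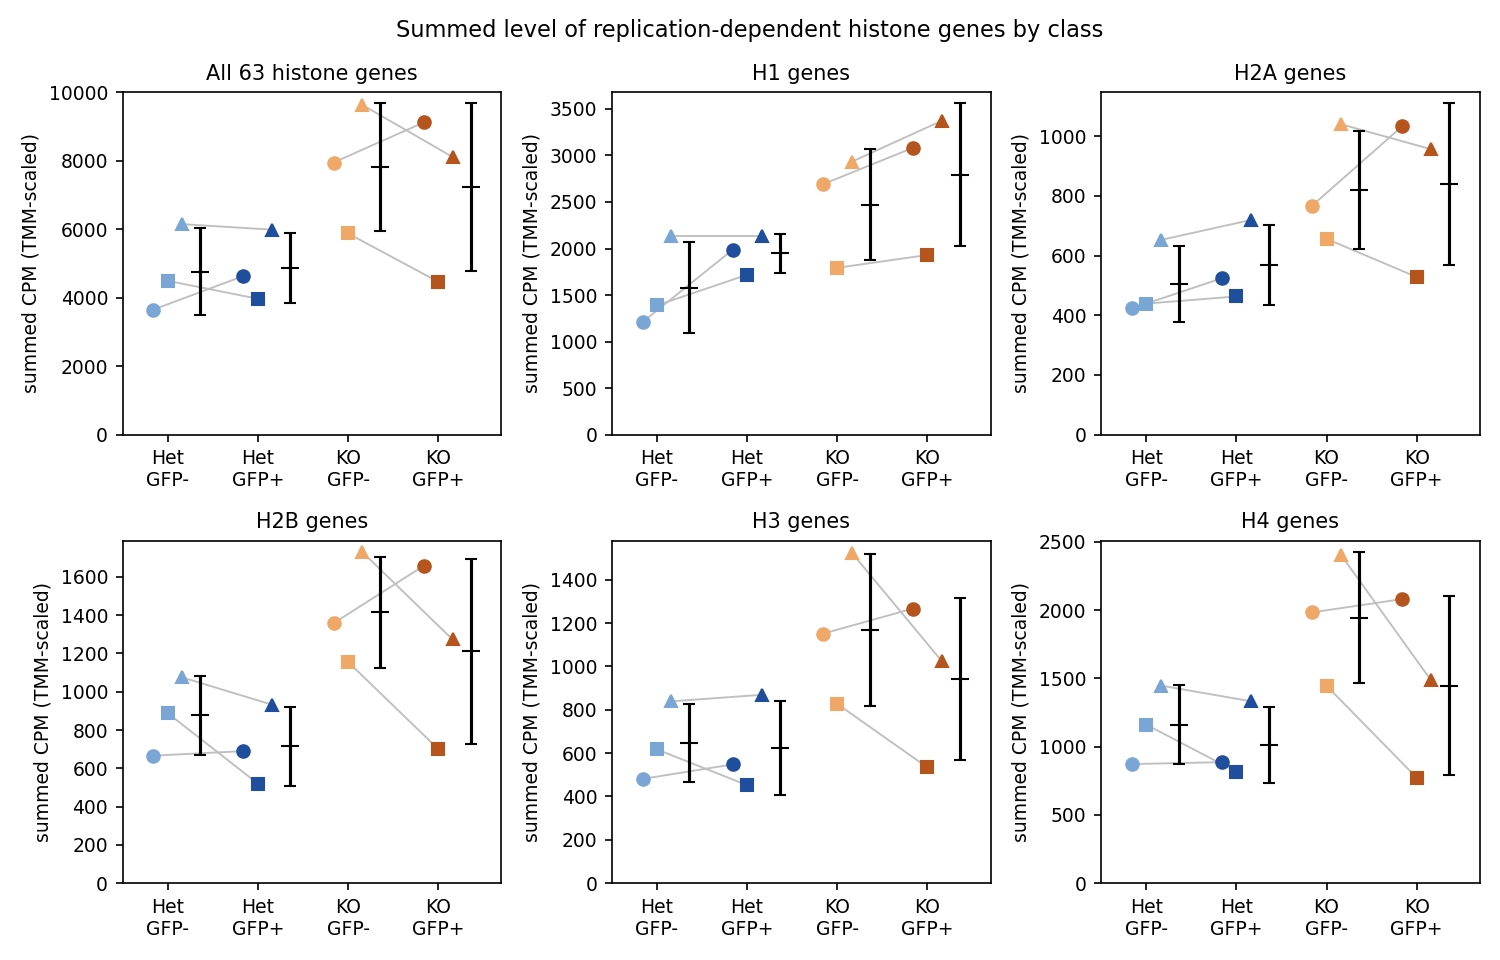
Summed TMM-scaled CPM (vertical axes, from 0) of all 63 histone genes and of each class in the 4 groups; circles, squares and triangles are replicates 1, 2 and 3, grey lines join the sorts of 1 recipient, and black bars are the mean ± SD of 3 libraries. The Het means (4765 and 4864 CPM for all members) lie below the KO means (7819 and 7232), and H1 and H4 differ in how the GFP-positive libraries sit beside the GFP-negative ones.

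The first genotype comparison, Het GFP-negative minus KO GFP-negative, sets cells without reporter signal side by side. Of 55 tested members 53 had a log2 fold change below 0, with a median of -0.72, against a median of 0.01 over all 13238 tested genes. No member was called by edgeR's quasi-likelihood test at an FDR of 0.05 (smallest Benjamini-Hochberg adjusted p = 0.788), and 0% of all tested genes were called. At an unadjusted p under 0.05, 29 of 55 members were lower in Het cells, against 2.8% of all tested genes lower, and 23 of 55 had all 3 Het libraries below all 3 KO libraries, against 5.89% of all tested genes. The members share sequence and mostly follow 1 pattern over the libraries, so they are not independent. A count of members, here and below, is not a count of separate observations. DESeq2 and limma-voom called 0 members, and limma-voom with sample quality weights called 2, both lower. The share of all tested genes called with these weights is not given here. Every class took part, with medians of -0.65 for H1, -0.64 for H2A, -0.70 for H2B, -0.82 for H3 and -0.74 for H4.

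Hist1h3c, Hist1h1a, Hist2h4 and Hist2h2ac are examples among the 23 of 55 members without overlap, and the other members overlapped. Hist1h3c had the lowest log2 fold change of all 55, and Hist1h1a was the only 1 of 5 H1 genes without overlap. Hist1h3c, an H3 gene, had 57.6, 60.6 and 77.3 CPM in Het GFP-negative and 136, 96.2 and 177 CPM in KO GFP-negative libraries. All Het libraries lay below all KO libraries, and the log2 fold change of -1.06 ± 0.31 (SE) had an adjusted p of 0.788 by edgeR. Hist1h1a, a linker histone gene with no 50-base window shared with another gene, had 86.7, 110 and 124 against 189, 144 and 252 CPM. These values do not overlap either, and its log2 fold change was -0.87 ± 0.25 (SE). Hist2h4, an H4 gene of the Hist2 cluster, had 67.7, 93.3 and 97.6 CPM in Het and 146, 113 and 203 CPM in KO GFP-negative libraries, a log2 fold change of -0.84 ± 0.30 (SE). Hist2h2ac, the leading H2A gene outside the Hist1 cluster, had 66.2, 74.3 and 78.4 against 110, 91.3 and 134 CPM, a log2 fold change of -0.61 ± 0.19 (SE). The 2 members on the other side of 0 were low: Hist2h3c2, with 89 counts in all (0.74 ± 0.67), and Hist3h2a, with 563 counts (0.13 ± 0.45).

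Het GFP-positive minus KO GFP-positive, the comparison that the design text names for Eomes-dependent genes, gave 54 of 55 members below 0 with a median of -0.60, against 0.01 over all tested genes. By edgeR 0 of 55 members were called at an FDR of 0.05 (smallest adjusted p = 0.465, Hist2h2ac), against 0.106% of all tested genes. DESeq2 and limma-voom, with and without sample quality weights, also called 0. At an unadjusted p under 0.05, 12 members were lower in Het cells, against 2.72% of all tested genes lower, and 9 of those 12 were H2B genes. In 3 of 55 members all Het libraries lay below all KO libraries, against 3.26% of all tested genes. The medians were -0.79 for H2B, -0.60 for H3 and H4, -0.56 for H2A and -0.49 for H1. Hist2h2ac had 81.2, 62.7 and 82.9 CPM in Het and 126, 90.5 and 130 in KO GFP-positive libraries, without overlap, and a log2 fold change of -0.61 ± 0.19 (SE). In Hist1h2bc, an H2B gene whose mRNA can be polyadenylated, the values were 71.6, 63.1 and 74.3 against 140, 70.6 and 129 CPM, and KO replicate 2 alone overlapped the Het range. The median over the members was -0.50 without Het GFP-positive replicate 2, -0.90 without KO GFP-positive replicate 2 and -0.43 without KO GFP-positive replicate 1.

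Both genotype comparisons kept a median below 0 in every class under all 18 settings tried for each. The range over the settings was -0.96 to -0.51 for GFP-negative and -0.90 to -0.43 for GFP-positive cells. Genes of proliferation lay the same way: all 30 S phase genes had a log2 fold change below 0 in both comparisons (medians of -0.45 and -0.24), as had all 20 genes of G2 and mitosis (-0.46 and -0.37), and none was called by edgeR. The summed myeloid markers lay the other way, at 200 to 1691 CPM in Het and 44.2 to 657 CPM in KO GFP-negative libraries, and at 516 to 4037 against 314 to 1350 CPM in GFP-positive libraries. The summed erythroid markers were 5.37 to 54.6 against 20.8 to 96.9 CPM and 36.1 to 155 against 86.4 to 295 CPM. All 10 myeloid markers had a log2 fold change above 0 and all 8 erythroid markers below 0 in both comparisons. Their part in the histone result was not tested.

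**Figure D2:**
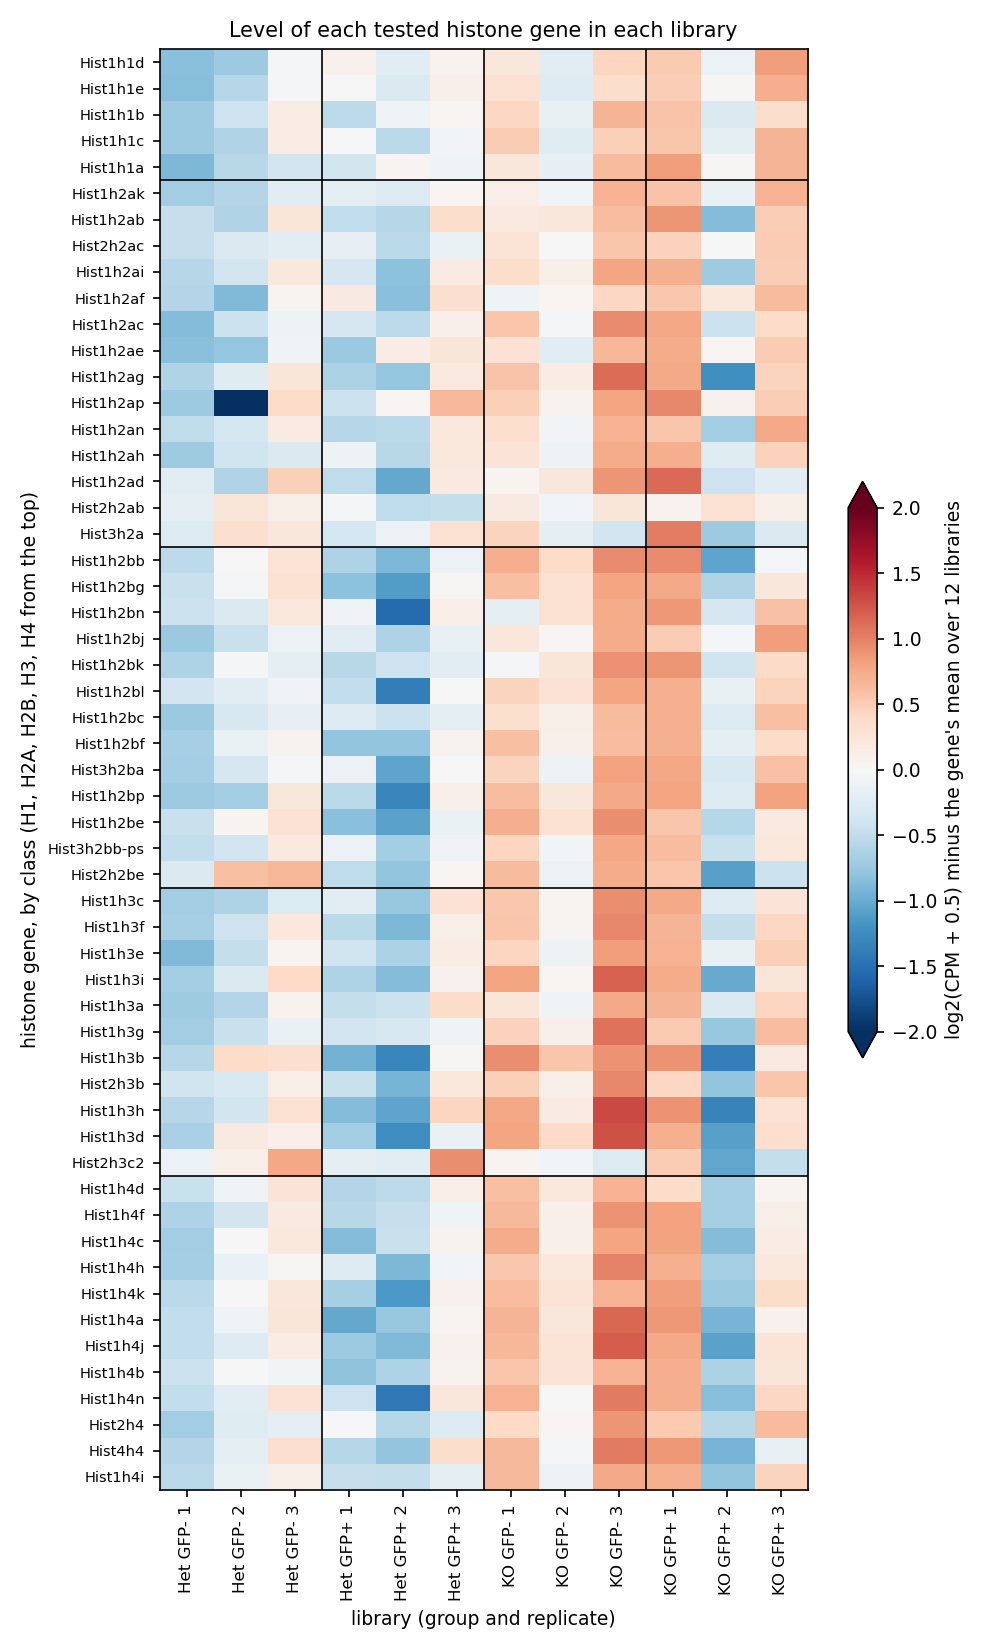
Level of the 55 tested histone genes (vertical axis, by class and within a class by mean CPM per kb) in the 12 libraries (horizontal axis), coloured by log2(CPM + 0.5) minus the gene's mean over the libraries. Most members share 1 pattern over the libraries, low in Het GFP-negative replicate 1 and high in KO GFP-negative replicate 3 and KO GFP-positive replicate 1; Hist1h2ap in Het GFP-negative replicate 2 (3.54 CPM) stands out.

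The GFP comparison in Het cells, which the design text names as the signature of Eomes-expressing cells, placed the histone classes apart. No member was called by edgeR at an FDR of 0.05 (smallest adjusted p = 0.251), where 3.45% of all tested genes were, and none had an unadjusted p under 0.05, against 23.2% of all tested genes. Hist1h1a alone had all GFP-positive libraries above all GFP-negative ones, where 12.7% of all tested genes did. DESeq2 and limma-voom, with and without sample quality weights, called 0. The median over 55 members was -0.12, against -0.02 over all tested genes, with 22 members above 0 and 33 below. The 5 H1 genes were all above 0 (median 0.39), 8 of 14 H2A genes were (0.05), and 11 of 12 H4 genes (-0.23) and 10 of 13 H2B genes (-0.17) were below 0. H3 was mixed, with 5 above and 6 below (-0.10). Over the 55 members the highest log2 fold change was that of the H2A gene Hist1h2ap (0.73 ± 0.58, SE) and the lowest that of Hist2h2be (-0.79 ± 0.45), an H2B gene whose mRNA can be polyadenylated. Without both GFP-positive replicates 2 the median over the 58 members then tested was 0.07 in Het and 0.09 in KO cells, so its sign turned. The class medians were then 0.38 for H1, 0.15 for H2A, -0.01 for H2B, 0.10 for H3 and -0.12 for H4 in Het cells. In KO cells they were 0.45, 0.29, 0.09, -0.04 and -0.09 in the same order. Hist1h2ap rested on Het GFP-negative replicate 2 (3.54 CPM, beside 16.4 and 35.5), and its sequence is 93.1% shared with other genes.

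In KO cells, GFP-positive minus GFP-negative, H1 again had the highest and H4 the lowest class median. The medians were 0.28 for H1, 0.04 for H2A, -0.09 for H2B, -0.32 for H3 and -0.38 for H4, and all 12 H4 genes lay below 0. By edgeR no member was called (smallest adjusted p = 0.334), against 0.128% of all tested genes, and none had an unadjusted p under 0.05, against 17.5%. DESeq2 and limma-voom called 0, whereas limma-voom with sample quality weights called 10, all lower. The share of all tested genes called with these weights is not given here, so the 10 is not read as a result about the members. The test of the difference between the genotypes, the interaction of GFP and genotype, called 0 members by edgeR, against 0.00755% of all tested genes. It gave 0 at an unadjusted p under 0.05, against 1.99% of all tested genes, and 0 by DESeq2 and limma-voom. The GFP comparisons and the genotype comparisons share libraries, so their values are given side by side only.

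**Figure D3:**
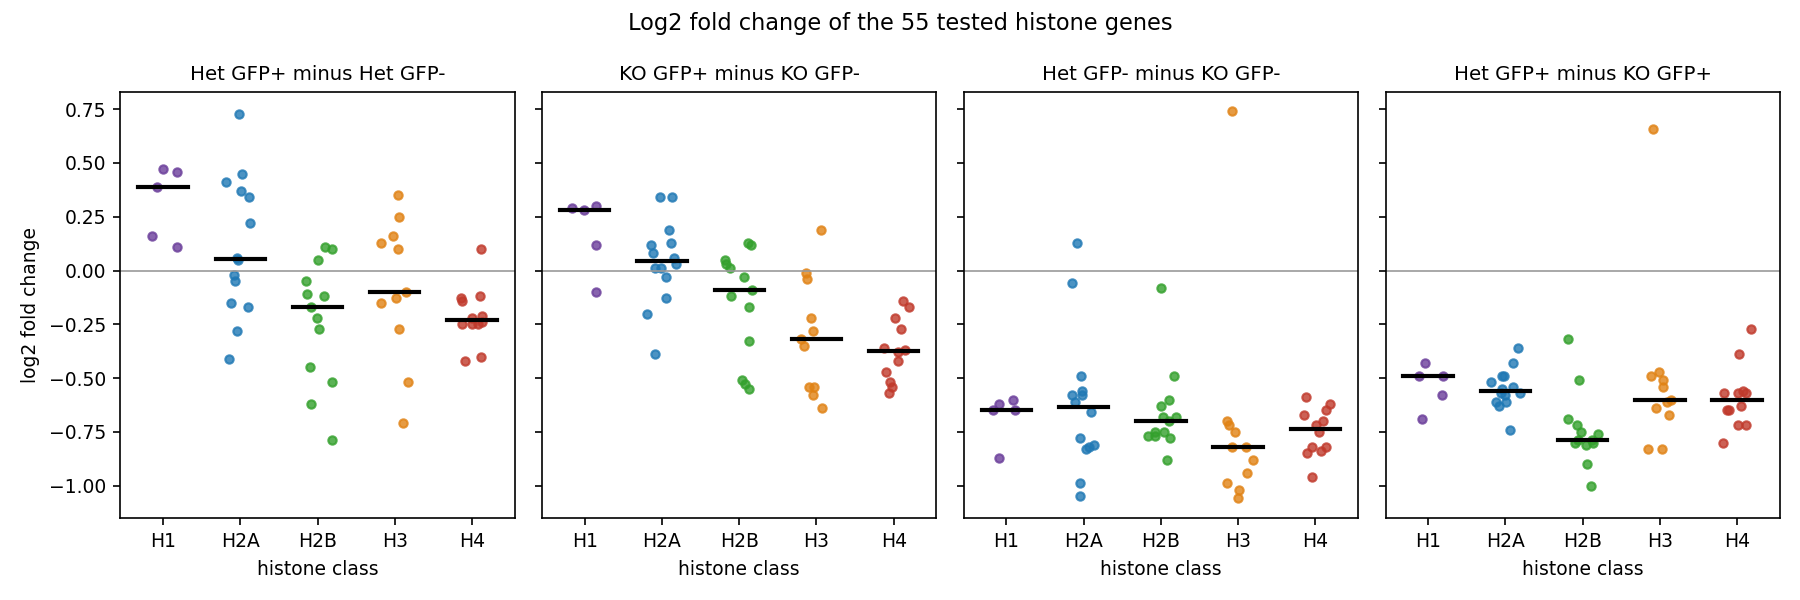
Log2 fold change (vertical axis) of the 55 tested histone genes by class in 4 comparisons; each point is a gene and the black line is the class median. Between the GFP sorts H1 has the highest class median (0.39 and 0.28) and H4 the lowest (-0.23 and -0.38), and between genotypes all class medians lie below 0.

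GFP-positive and GFP-negative cells of the same recipient allow a paired fit, with the recipient as a block, and it made some calls. In Het cells 2 of 55 members were called by edgeR with this block, Hist1h1a higher and Hist1h2be lower in GFP-positive cells, against 22.2% of all tested genes (12.8% higher and 9.41% lower). Hist1h1a had 86.7, 110 and 124 CPM in GFP-negative and 126, 168 and 152 CPM in GFP-positive libraries of recipients 1 to 3, a log2 fold change of 0.48 ± 0.15 (SE, adjusted p = 0.0379 by edgeR with the block). It was higher in 3 of 3 Het recipients. Hist1h2be went from 99.5, 141 and 165 CPM to 75.6, 64.3 and 123 CPM, a log2 fold change of -0.64 ± 0.18 (SE, adjusted p = 0.0304). The H1 genes Hist1h1d (0.50 ± 0.17, SE, adjusted p = 0.0572) and Hist1h1e (0.42 ± 0.16, adjusted p = 0.0858) were not called. At an unadjusted p under 0.05 the block gave 7 members higher and 4 lower, against 19.7% and 17.7% of all tested genes.

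In KO cells the block called 3 members, all lower in GFP-positive cells, against 17.7% of all tested genes (8.14% lower). At an unadjusted p under 0.05, 14 members were lower, against 17.7% of all tested genes lower. Hist1h4d, the H4 gene with the highest level per kb, went from 425, 321 and 453 CPM to 358, 175 and 289 CPM in recipients 1 to 3, a log2 fold change of -0.58 ± 0.15 (SE, adjusted p = 0.0283 by edgeR with the block). Hist1h3i, an H3 gene, went from 105, 62.2 and 137 CPM to 101, 29.9 and 71.7 CPM (-0.64 ± 0.20, adjusted p = 0.0488). Hist1h2be went from 223, 167 and 258 CPM to 199, 90.5 and 154 CPM (-0.58 ± 0.18, adjusted p = 0.0484). Each was lower in 3 of 3 KO recipients, by least in recipient 1. Of the 50-base windows of Hist1h3i 87.6% occur in other histone genes, and Hist1h2be has the overlap given above. The values of both are therefore uncertain. Without KO recipient 1 the blocked fit called 22 members, and without KO recipient 2 or KO recipient 3 it called 0. In Het cells it called 1 without recipient 1, 0 without recipient 2 and 2 without recipient 3. Without both recipients 2 it called 0 members in either genotype. Shares of all tested genes called in these reduced fits are not given here, so the counts show only how the calls depend on single recipients. The interaction with the block called 0 members by edgeR, against 0.0755% of all tested genes, with 1 at an unadjusted p under 0.05, against 4.77%.

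Directions by class depended in part on single libraries and on a correction for base composition and length. Only H1 kept its side of 0 under all settings in both genotypes. Over 24 settings the H1 median stayed above 0 in both genotypes (0.19 to 0.70 in Het, 0.06 to 0.58 in KO). The H4 median stayed below 0 in KO cells (-0.76 to -0.09) and in 22 of 24 settings in Het cells. The exceptions were the fits with an offset for GC content and length, which gave 0.03 without and 0.01 with the block. H2B was below 0 in 22 of 24 settings in Het and 19 of 24 in KO cells, and H3 in 16 and 24 of 24. The median H1 gene lay above the median H4 gene in all 24 settings of each genotype, by 0.48 to 0.85 in Het and 0.44 to 0.90 in KO cells (0.62 and 0.66 in the reported fits). H1 and H4 are the classes with the highest and lowest medians in these same comparisons. The settings refit the same libraries, so their agreement is no separate support. With the block and the offset together, 8 members were called in Het cells (7 higher, 1 lower) and 3 in KO cells (3 higher), so that the split of calls by direction turned with the offset. The share of all tested genes called with both is not given here.

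The make-up of the histone counts within a library shows the class difference free of the scaling between libraries. H1 took 33.1%, 30.9% and 34.7% of the histone counts in Het GFP-negative and 42.9%, 43.3% and 35.7% in Het GFP-positive libraries. In KO cells it took 33.8%, 30.5% and 30.5% against 33.8%, 43.2% and 41.6%. The Het groups did not overlap, and the KO groups met at recipient 1, where both sorts held 33.8%. H4 took 23.9%, 25.8% and 23.5% in Het GFP-negative and 19.1%, 20.6% and 22.2% in Het GFP-positive libraries. The KO values were 24.9%, 24.6% and 25.0% against 22.8%, 17.3% and 18.3%, so H4 did not overlap between the sorts in either genotype. The ratio of H1 to H4 counts averaged 1.36 ± 0.14 and 1.98 ± 0.34 in Het and 1.27 ± 0.08 and 2.08 ± 0.54 in KO cells (GFP-negative and GFP-positive, SD, n = 3). It was higher in the GFP-positive library of 6 of 6 recipients, and of 4 of 4 without recipients 2. The difference was smallest in Het recipient 3 (1.48 to 1.6) and KO recipient 1 (1.36 to 1.48). The H1 and H4 classes had the highest and lowest medians in these same libraries, so the ratio restates that difference. No test is given for such sums over members.

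The individual members behind these shares can be read by recipient. Hist1h1d went from 292, 315 and 513 CPM to 551, 444 and 548 CPM in Het and from 608, 445 and 706 to 747, 480 and 932 CPM in KO recipients. Hist1h1e went from 258, 313 and 454 to 461, 379 and 500 CPM and from 574, 386 and 593 to 649, 471 and 766 CPM. Together with Hist1h1a these H1 genes were higher in the GFP-positive library of 6 of 6 recipients. Hist1h1c, the H1 gene with the most counts, whose mRNA can be polyadenylated, was higher in 5 of 6, with 704 against 616 CPM in Het recipient 3. Hist1h1b was the exception among the H1 genes, with 187, 231 and 342 against 214, 290 and 319 CPM in Het and 413, 279 and 498 against 459, 252 and 397 CPM in KO recipients. No H2B, H3 or H4 gene was higher in 5 or 6 of the recipients, and 4 of 14 H2A genes were. The share of all tested genes higher or lower in as many recipients is not given. These counts, here and in the next paragraph, are therefore not read as a trait of the classes.

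Among the core histone genes, Hist1h2be and Hist2h2be (H2B) and Hist1h3b and Hist1h3d (H3) were lower in the GFP-positive library of all 6 recipients, as was Hist1h4d (H4). Hist1h3b went from 41.2, 79.9 and 78 CPM to 31.8, 24.6 and 63 CPM in Het and from 118, 91.0 and 115 CPM to 116, 23.5 and 70.1 CPM in KO recipients. The difference was widest in recipients 2, the libraries with most counts in the 4 large features. Hist1h2bb, the H2B gene with the highest level per kb, went from 138, 199 and 241 to 130, 107 and 185 CPM in Het and from 329, 259 and 384 to 385, 95.5 and 195 CPM in KO recipients. Hist1h4f went from 132, 157 and 231 to 138, 148 and 192 CPM and from 320, 218 and 379 to 355, 128 and 220 CPM. Hist1h2bb and Hist1h4f were not lower in the GFP-positive library of KO recipient 1, nor was Hist1h4f in Het recipient 1.

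Members outside the Hist1 cluster did not form a group of their own. Hist2h2ac lay close to 0 between the sorts, with log2 fold changes of 0.06 ± 0.19 in Het and 0.06 ± 0.19 in KO cells (SE). Hist2h4 gave 0.10 ± 0.30 and -0.17 ± 0.30, the H3 gene Hist2h3b -0.10 ± 0.35 and -0.35 ± 0.35, and Hist4h4 -0.14 ± 0.44 and -0.47 ± 0.44. The H2B gene Hist3h2ba gave 0.05 ± 0.33 and 0.03 ± 0.33, and the pseudogene Hist3h2bb-ps -0.05 ± 0.31 and -0.17 ± 0.31. Hist2h2ab, an H2A gene at 4.29 to 7.84 CPM, gave -0.41 ± 0.25 and 0.01 ± 0.25. Hist2h2be, the tested H2B gene with the lowest level per kb (2.13 CPM per kb), was at 2.14 to 8.83 CPM and gave -0.79 ± 0.45 and -0.55 ± 0.45. None of these was called by edgeR, with or without the block, and the values of Hist2h2ab and Hist2h3b are uncertain through the overlaps and shared sequence given above.

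S phase genes of the same libraries lay on the other side of 0 from the H2B and H4 medians in the GFP comparisons of the reported fit. As given above, the H2B median in KO cells lay above 0 without both GFP-positive replicates 2. The H4 median in Het cells lay above 0 with the GC and length offset. Of 30 genes of DNA replication 27 had a log2 fold change above 0 in Het GFP-positive minus GFP-negative cells (median 0.44) and 25 in KO cells (0.24). Without the block edgeR called 1 of them, Lig1, the replicative DNA ligase, at 100, 113 and 93.1 CPM in Het GFP-positive and 55.3, 45.3 and 49.3 CPM in Het GFP-negative libraries. Its log2 fold change was 1.03 ± 0.18 (SE, adjusted p = 0.0114 by edgeR). With the block 13 were called higher in Het cells, among them the helicase subunit gene Mcm2 (0.47 ± 0.13, adjusted p = 0.0249), the licensing genes Cdc6 (0.77 ± 0.14, adjusted p = 0.00366) and Cdt1 (0.60 ± 0.13, adjusted p = 0.0104) and Tk1 (0.67 ± 0.14, adjusted p = 0.00745). In KO cells 7 of the 30 were called higher, and none was called lower in either genotype. Over all tested genes the block called 12.8% higher and 9.41% lower in Het cells. In KO cells it called 1271 of 13238 higher and 8.14% lower. The blocked calls of every list in this paragraph stand beside these shares. Pcna, the replication clamp, lay the other way without a call, at -0.52 ± 0.34 in Het and -0.36 ± 0.34 in KO cells (SE). All 8 erythroid markers (medians of 2.04 in Het and 1.65 in KO cells) and all 10 myeloid markers (2.04 and 1.92) also had a log2 fold change above 0, and the block called 7 and 8 erythroid and 9 and 10 myeloid markers higher. Of the 9 CD4 T cell markers the block called 4 lower in Het and 5 in KO cells, and Cd4 was called lower in Het cells also without it (-0.76 ± 0.17, SE, adjusted p = 0.0333 by edgeR). The part of these markers in the histone and S phase values was not tested. Of 10 tested other RNAs without a poly(A) tail 6 lay below 0 in each genotype (medians of -0.35 in Het and -0.21 in KO cells). The block called 1 higher and 2 lower in Het and 1 lower in KO cells. Their summed level was 8425 to 11891 CPM without and 8278 to 14309 with GFP in Het cells. The KO values were 9925 to 13866 and 12297 to 17157 CPM. A part of the missing tail in the histone values was not tested. Of 20 genes of G2 and mitosis none was called without the block (medians of 0.26 in Het and 0.11 in KO cells), with the proliferation marker Mki67 at 0.32 ± 0.20, the topoisomerase gene Top2a at 0.10 ± 0.21 and the mitotic kinase gene Cdk1 at 0.07 ± 0.24 in Het cells (SE). The block called 4 of these 20 genes higher in Het and 2 in KO cells, which is not read as a result about them.

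Set against the S phase genes, the core histone sum was smaller in GFP-positive cells of every recipient. The core sum itself was higher in the GFP-positive library of 2 of 6 recipients (2442 and 2648 CPM in Het recipient 1, 5258 and 6038 CPM in KO recipient 1, GFP-negative first), and of 2 of 4 without recipients 2. The S phase sum was higher in 5 of 6 and in 4 of 4, so in both recipients 1 the lower ratio came from the larger S phase sum. The ratio of the summed CPM of the 57 core histone genes to that of the 30 S phase genes was 1.49, 1.87 and 1.97 in Het GFP-negative and 1.32, 0.98 and 1.41 in Het GFP-positive libraries. In KO cells it was 2.40, 1.91 and 2.32 against 1.93, 1.23 and 1.51. GFP-positive lay below GFP-negative in 6 of 6 recipients and in 4 of 4 without recipients 2, and the Het groups did not overlap, whereas the KO groups met, with 1.93 in GFP-positive replicate 1 above 1.91 in GFP-negative replicate 2. The ratio of H1 to the S phase genes was 0.88 ± 0.16 and 0.84 ± 0.13 in Het and 1.03 ± 0.20 and 1.00 ± 0.08 in KO cells (GFP-negative and GFP-positive, SD, n = 3), a difference smaller than the spread.

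**Figure D4:**
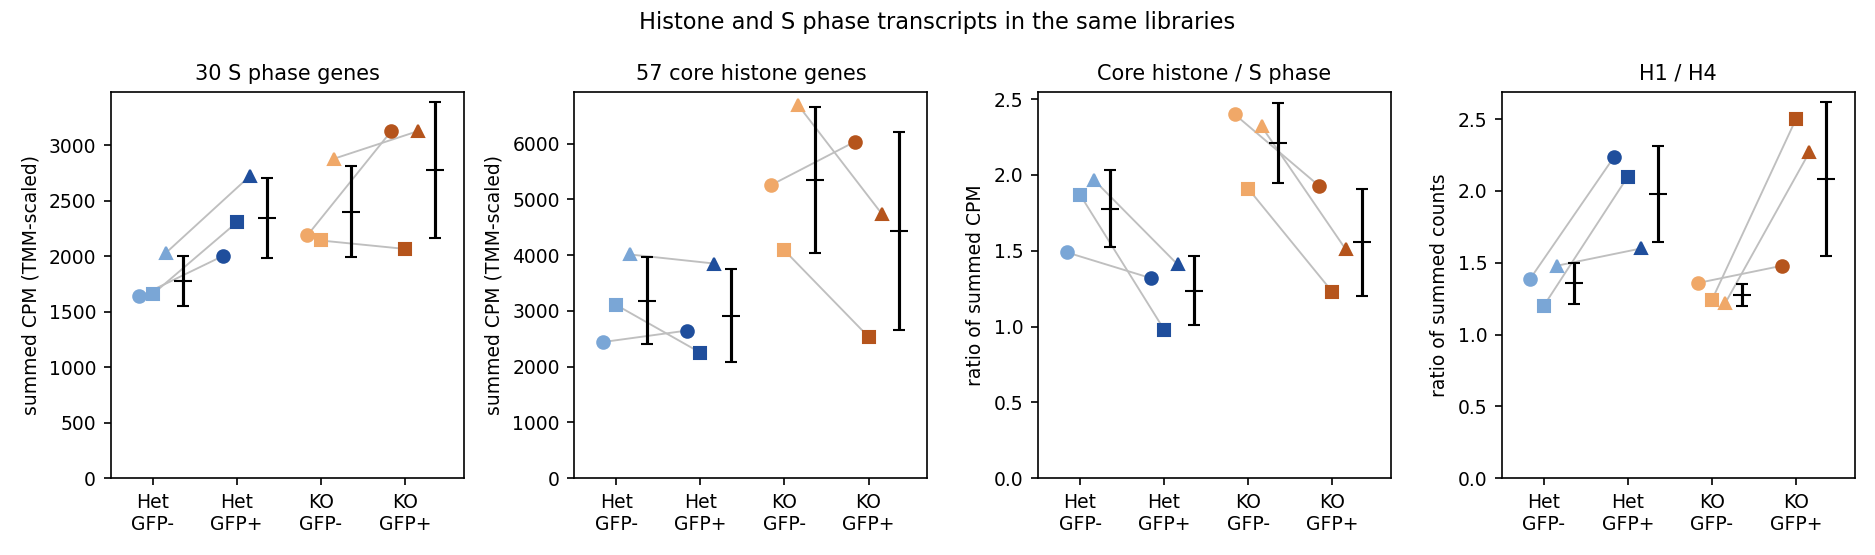
Summed TMM-scaled CPM of 30 S phase genes and 57 core histone genes, the ratio of the core histone to the S phase sum, and the ratio of H1 to H4 counts (vertical axes, from 0) in the 4 groups; symbols are replicates, grey lines join the sorts of 1 recipient, and black bars are the mean ± SD of 3 libraries. In 6 of 6 recipients the core histone to S phase ratio is lower and the H1 to H4 ratio higher in the GFP-positive library.

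The genes that make and process histone mRNA lay on both sides of 0 between the GFP sorts. All 23 were tested, with 10 above and 13 below 0 in Het and 11 above and 12 below in KO cells and medians of -0.05 in both, and without the block edgeR called none in the GFP or genotype comparisons. Slbp, which binds the stem-loop shown above, had means of 72.6 ± 2.95 and 82.1 ± 13.1 CPM in Het cells without and with GFP and 85.8 ± 9.26 and 80.4 ± 22.4 CPM in the KO pair (SD, n = 3). Npat was at 66.0 ± 6.56, 58.8 ± 12.9, 65.6 ± 2.09 and 62.9 ± 7.27 CPM, and Lsm11, a subunit of the particle that cleaves the histone mRNA end, at 13.9 ± 2.96, 12.9 ± 2.01, 13.9 ± 0.722 and 13.1 ± 1.65 CPM. With the block, 4 of the 23 were called in Het cells (Cdk2, E2f1, Lsm10 and Nelfe, 3 higher and 1 lower) and 2 in KO cells (E2f1 and Nfyb, 1 higher and 1 lower). Of all tested genes 22.2% and 17.7% were called with the block, so these calls are not read as a result about the list. Of 16 histone chaperone genes the block called Chaf1a, a subunit of the chromatin assembly factor at replication forks, higher in both genotypes. In Het minus KO cells 13 of the 23 genes of histone mRNA lay below 0 without GFP (median -0.08) and 20 with GFP (-0.13). Of the 16 chaperone genes 13 and 11 lay below 0 in these comparisons (-0.14 and -0.11).

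Replication-independent histone genes, whose mRNAs carry poly(A) tails, gave medians of -0.10 in Het and -0.12 in KO cells between the GFP sorts, over 9 tested of 11. In Het minus KO cells 8 of the 9 lay below 0 without GFP (median -0.22) and all 9 with GFP (-0.35). None was called between genotypes by edgeR without the block. H1f0, the linker histone gene of resting cells, lay opposite to the replication-dependent H1 genes, at 45.2, 82.2 and 123 CPM in Het GFP-negative and 30.4, 22.2 and 63.4 CPM in Het GFP-positive recipients 1 to 3. In KO recipients it went from 122, 69.9 and 73.7 to 72.9, 33.5 and 41.4 CPM. Without the block it was not called (-1.08 ± 0.44 in Het and -0.81 ± 0.44 in KO cells, SE). With the block it was called lower in both, at -1.09 ± 0.20 (adjusted p = 0.00408 by edgeR) and -0.86 ± 0.20 (adjusted p = 0.0187). H2afx, the H2A variant marked at DNA breaks, which has both mRNA forms, was called higher with the block (0.63 ± 0.12, adjusted p = 0.00521, and 0.41 ± 0.12, adjusted p = 0.0455). In Het cells the block also called H2afy (-0.47 ± 0.14, adjusted p = 0.0301), the gene of a large H2A variant, and H3f3a (-0.75 ± 0.22, adjusted p = 0.0325), a gene of the replication-independent H3 variant, lower. H2afz (-0.10 and -0.12) and H3f3b (-0.06 and -0.24) were not called. The block thus called 4 of the 9 in Het and 2 in KO cells, against 22.2% and 17.7% of all tested genes.

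The authors' deposited tables of differing genes hold 0 of the 63 members each. The authors' deposited table of the Het GFP comparison lists 1406 genes, that of the KO GFP comparison 388, and that of the genotypes within GFP-positive cells 77.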

How the data were processed

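Members, gene lists and alternatives were chosen with earlier results of these data known. The authors deposited whole-number counts per gene for 12 libraries; per the submitters' processing notes, bcl2fastq 1.8.4, TopHat2 2.0.13, featureCounts 1.5.0-p1 and DESeq2 1.6.1 were used with the mm10 build. For strand and multiple matches, the counting options were not given in the sources used here. The authors' DESeq2 tables, per the file headers, hold a mean normalized signal, log2 fold changes with standard errors, a test statistic (a score) and p-values, and were used here for listing only. Symbols came from GENCODE M21 (42462 identifiers matched, 1164 not), and coordinates are those of the deposited files (GRCm38).

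Counts were tested with edgeR 4.0.16 (R 4.3.3): TMM scaling, filterByExpr (minimum count 10, minimum total 15), 4 group means over all 12 libraries, the quasi-likelihood F-test, two-sided, Benjamini-Hochberg adjustment over 13238 genes and a call at FDR 0.05. Each standard error was taken as the absolute log2 fold change over the root of its F statistic. Scripts were tested on simulated data for the Het GFP comparison. Of 100 changes of 1 log2 unit the fit without the block recovered 27, and 0 where a chosen recipient effect was added. The fit with the block then recovered 93, with 22 false calls. An absence of calls without the block is therefore not read as an absence of changes of this size. CPM are TMM-scaled. Precision is limited by 6264 (KO GFP-positive replicate 2) to 194186 histone counts per library, and reads carry no molecular identifiers.

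Sorts with the same number in a genotype share a recipient, as the series' design states, and deviated together from their group means, with r 0.547, 0.241 and 0.617 (Het) and 0.507, 0.506 and 0.263 (KO). Results with the block are given beside those without it. Nothing says that each recipient had its own donor, so p-values of the genotype comparisons measure the spread between recipients. With the block, p-values of the GFP comparisons measure the spread of the differences within recipients. Without the block they treat both sorts of a recipient as independent.

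Alternatives were DESeq2 1.42.0 and its size factors, limma-voom (limma 3.58.1) with and without quality weights, no filter, only the groups compared, a GC and length offset, the block, library sizes without the 4 large features and leaving out each library. Named members are, per class, the 3 with the highest CPM per kb and those with the highest and lowest log2 fold change in Het GFP-positive minus GFP-negative cells, all tested members outside the Hist1 cluster, called members and Hist1h1c, Hist1h2bc, Hist2h2be and Hist1h1t. Of the other lists these are Slbp, Npat, Lsm11, H2afz, H3f3b, Mcm2, Pcna, Mki67, Top2a, Cdk1 and called members. Hist1h3d, and members named for uncertain counting or as lacking shared windows, were chosen after their values were seen.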

Additional observations from a re-analysis of the deposited data

Results flagged for a closer look

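A pair of members that did not pass the filter on low counts, and so entered no comparison, had most of their counts in a single library. Hist2h2aa2, an H2A gene whose 50-base windows all occur in another gene, had 203 of its 273 counts in KO GFP-positive replicate 3. Hist1h4m, a near copy of Hist1h4n, had 95 of its 151 counts in KO GFP-negative replicate 2. Of the 50-base windows of Hist1h4m 89.8% occur in another gene, and whether these reads belong to the members was not tested.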

How the results depend on the processing

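The reported fit called 0 members in each of the 5 comparisons, and so did DESeq2, DESeq2 size factors, limma-voom without weights, no filter, only the groups compared and library sizes without the 4 large features. In Het GFP-positive minus GFP-negative cells the count was 2 with the replicate block, 2 with DESeq2 size factors and the block, 6 with DESeq2 and the block, 8 with the block and the GC and length offset, and 0 to 2 with the block and a recipient left out. In KO GFP-positive minus GFP-negative cells it was 3, 1, 8 and 3 under the same 4 settings, 0 to 22 with the block and a recipient left out, 10 with limma-voom quality weights and 0 to 1 when single libraries were left out, the 1 being without KO_GFP_pos replicate 1. In Het GFP-negative minus KO GFP-negative cells quality weights gave 2. The share of all tested genes called is given above only for the reported fit and the replicate block. The other counts therefore show only how the calls depend on the setting. DESeq2 with the block, the block with DESeq2 size factors, the block with recipients left out and the fits without recipients 2 were added after seeing the data. Same-numbered Het and KO libraries come from different recipients; with the number as a block, 0 members were called between genotypes. Among the named members with a reversed sign, the log2 fold change of Hist1h1b in Het cells ran from -0.07 (without Het_GFP_neg replicate 1) to 0.40 with single libraries left out, that of Hist1h2bc from -0.04 to 0.25 and -0.08 with the block and without Het recipient 1, and Hist2h4 -0.22 with the block and without Het recipient 1, -0.06 to 0.22 with single libraries left out (-0.04 without Het_GFP_neg replicate 1) and -0.00 with quality weights. The causes were not tested. The 8 untested members held 0.0714% of the histone counts, and KO GFP-positive replicate 2, with 6264, limits single genes most.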
